A study of Mus musculus with 12 samples.

Results

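Collagen fibres in the heart are built from chains that are hydroxylated inside the cell and crosslinked outside it, and 10 genes of these steps were examined across the 4 groups of the study. They are Lox, Loxl1, Loxl2 and Loxl3, which encode lysyl oxidases, P4ha1, P4ha2 and P4ha3, which encode the catalytic alpha subunits of collagen prolyl 4-hydroxylase, and Plod1, Plod2 and Plod3, which encode lysyl hydroxylases. The members were found by matching NCBI Gene identifiers to mouse symbols, and all 10 were among the 18079 genes of the deposited table. The matching rule itself used no expression value, but the members and the further gene lists were chosen with earlier results of these data known. Counts of genes called among them are therefore descriptive.

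Left ventricular muscle of 12 mice was sequenced, of strain C57BL/6 by the labels and C57BL/6J by the study's methods, with 3 samples, taken here as 3 mice, in each of 4 groups, which are named by injection (DMSO or hispidulin) and by operation (Sham or AB). By the labels all mice were operated on at 8 weeks of age and were 12 weeks old at harvest, 4 weeks after surgery. The study's methods give a range of ages at surgery that begins at 8 weeks, and no mouse is stated to carry an engineered allele. AB is a band tied around the descending aorta, which loads the left ventricle with pressure, and Sham is the same operation without the band. Hispidulin, a plant flavonoid, was injected intraperitoneally at 20 mg/kg/day in 2 of the groups, and the other 2 received DMSO, its solvent, in both cases from 1 day ahead of surgery. Single-end reads of 50 bases were made from polyadenylated RNA, and values are FPKM, which scale reads by transcript length and library size, so that levels may be compared between genes. Depth is unknown, and no counting error can be given.

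Prolyl 4-hydroxylase turns proline of the new chain into 4-hydroxyproline, without which the triple helix is not stable at body temperature. Lysyl hydroxylases modify lysines of the same chains and so set which kind of crosslink can form later. After secretion, lysyl oxidases, which carry copper, oxidise lysine and hydroxylysine side chains of collagen and elastin to aldehydes that then join neighbouring molecules. In the heart these enzymes are made mainly by fibroblasts and other non-muscle cells, and crosslinked collagen is known as a source of ventricular stiffness.

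The lysyl oxidases share a catalytic domain, and the coding stretch around its copper-binding histidines shows how alike the transcripts are. It is printed for Loxl1 and Loxl2, the members that rose after AB, and for Loxl3 beside them, as 36 bases of each gene, read from GENCODE vM21 on GRCm38 in the sense direction. Each stretch crosses an exon junction. For Loxl1 it lies within chr9:58293717-58294381 on the minus strand (exons 3 and 4 of 7), for Loxl2 within chr14:69682316-69689040 on the plus strand (exons 10 and 11 of 14), and for Loxl3 within chr6:83049995-83050128 on the plus strand (exons 10 and 11 of 14). Capitals mark the 14 positions at which the 3 stretches are not all alike.
Loxl1: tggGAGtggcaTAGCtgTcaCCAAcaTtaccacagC
Loxl2: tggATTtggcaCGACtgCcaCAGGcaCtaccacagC
Loxl3: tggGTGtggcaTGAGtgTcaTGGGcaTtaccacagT

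Loxl1 and Loxl2 had 25 of the 36 bases in common, and each had 27 in common with Loxl3. No 50-base word of one member's coding sequence occurred in another member, so reads of that length within coding sequence could be told apart among the 10 genes, and untranslated sequence was not compared. Outside the family, 91.7% of the 50-base words of the Loxl2 coding sequence also occurred in transcripts of Gm21451, which the annotation lists as an unprocessed pseudogene. A smaller share, 9.04%, occurred in Gm16867. Gm21451 was listed between 0.05 and 0.79 FPKM in the 12 mice and Gm16867 between 0.39 and 1.55 FPKM. How the deposited values divided reads between these copies and Loxl2 is not stated, so the Loxl2 level is uncertain. The Loxl3 gene overlaps Htra2, and Plod3 overlaps Znhit1 (3.17% of Plod3 words shared), and it is not stated whether strand was used in counting.

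In DMSO+Sham hearts Plod1 had the highest level of the 10, at 42.9 ± 5.26 FPKM (SD, n = 3), above every value of the next gene. P4ha2 followed at 23.1 ± 4.21 (SD, n = 3), Plod3 at 18.9 ± 3.98 (SD, n = 3) and P4ha1 at 15.9 ± 0.135 (SD, n = 3), and each of these 3 overlapped its neighbour in the order. The lysyl oxidases were lower, with Loxl1 at 12.1 ± 3.62 (SD, n = 3), Lox at 4.47 ± 2.98 (SD, n = 3), Loxl2 at 4.05 ± 1.54 (SD, n = 3) and Loxl3 at 1.47 ± 0.487 (SD, n = 3). Plod2 lay among them at 7.63 ± 0.477 (SD, n = 3), just below the lowest Loxl1 value, and Lox and Loxl2 overlapped. P4ha3 was listed at 0 in all 3 mice. In DMSO+AB hearts the mean level of Loxl1 was second among the 10, at 33.6 ± 11.5 FPKM (SD, n = 3), behind Plod1 at 51.8 ± 8.12 (SD, n = 3), although its range then overlapped that of P4ha2.

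**Figure D1:**
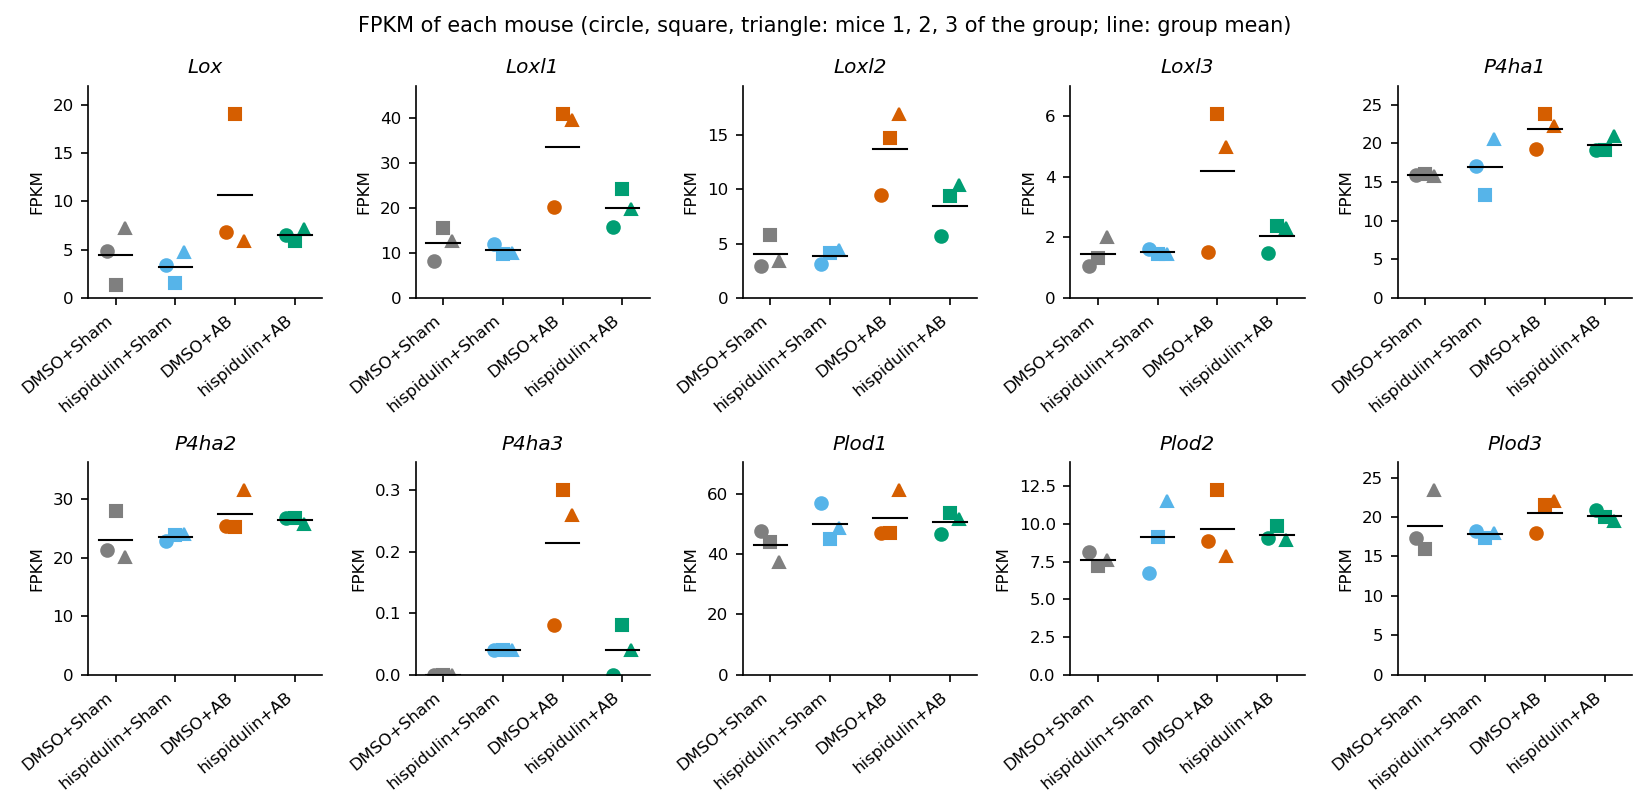
FPKM (vertical axes, each from 0) of the 10 genes in every mouse of the 4 groups, with 1 symbol per mouse and a line at the group mean. For Loxl1, Loxl2 and P4ha1 each DMSO+AB point is higher than each DMSO+Sham point, whereas for Plod1, Plod2 and Plod3 these 2 groups overlap.

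The first comparison asked what pressure overload did to these genes in mice given the solvent alone, and the lysyl oxidases gave the largest differences. The test was limma, two-sided, on log2(FPKM + 1), with the 4 groups in a single model, with Benjamini-Hochberg adjustment over the 11664 genes that reached 1 FPKM in 3 or more of the 12 libraries. P4ha3 did not reach that level and was not tested, which left 9 members. Of these 9, 2 rose (Loxl1 and Loxl2) and 0 fell at an adjusted p under 0.05, and all 9 had a higher fitted value in DMSO+AB. Across all genes tested 5.21% passed in either direction and 2.5% were higher after AB. At an unadjusted p under 0.05 there were 5 members, against 20.4% of all genes, and 3 members (Loxl1, Loxl2 and P4ha1) had no overlap, with each AB value higher than each sham value, as had 7.18% of all genes. The median log2 fold change was 0.43 over the 9 members and -0.03 over all genes tested.

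Loxl1, which is known for crosslinking elastin, was at 8.25, 15.43 and 12.70 FPKM in the DMSO+Sham mice and at 20.28, 40.89 and 39.49 FPKM in the DMSO+AB mice. Every AB mouse exceeded every sham mouse, the first AB mouse by the least. The fitted rise was 1.37 on the log2 scale (SE 0.268, 95% interval 0.79 to 1.96, adjusted p = 0.0181 from limma), which is 2.59-fold.

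For Loxl2, which acts on collagen of basement membranes and of fibrotic tissue, the DMSO+Sham mice were at 2.92, 5.81 and 3.42 FPKM and the DMSO+AB mice at 9.46, 14.72 and 16.96 FPKM. The groups did not overlap, and the highest sham mouse was the second of its group for Loxl2 as for Loxl1. The rise was 1.55 on the log2 scale (SE 0.262, 95% interval 0.98 to 2.12, adjusted p = 0.0111 from limma), or 2.93-fold. For both genes the exact two-sided permutation test on the 6 mice gave p = 0.1, the smallest that 3 mice against 3 allow.

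Lox itself, the enzyme first known for collagen crosslinking in vessels and skin, was at 4.87, 1.32 and 7.23 FPKM in DMSO+Sham and at 6.83, 19.06 and 5.95 FPKM in DMSO+AB. One AB mouse stood far above the others, and the remaining AB mice lay within the sham range. The difference was 1.10 on the log2 scale (SE 0.476, 95% interval 0.06 to 2.13) and did not pass (adjusted p = 0.219 from limma). Without DMSO+Sham mouse 2 it was 0.57 and without DMSO+AB mouse 2 it was 0.61. Loxl3, a lysyl oxidase needed for normal spine and palate development, was at 1.07, 1.32 and 2.01 FPKM in DMSO+Sham and at 1.51, 6.07 and 4.96 FPKM in DMSO+AB. Here it was the first AB mouse that stayed within the sham range. Its difference of 0.96 (SE 0.310, 95% interval 0.28 to 1.63) also did not pass (adjusted p = 0.102 from limma).

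P4ha1, the widely expressed alpha subunit, was at 15.86, 16.01 and 15.74 FPKM in DMSO+Sham and at 19.32, 23.84 and 22.30 FPKM in DMSO+AB. The sham mice were almost equal and the AB mice all higher, yet the difference of 0.43 on the log2 scale (SE 0.137, 95% interval 0.13 to 0.73) did not pass after adjustment (adjusted p = 0.0968 from limma). P4ha2, the alpha subunit with the higher level in these hearts, was at 21.35, 27.93 and 20.08 FPKM in DMSO+Sham and at 25.40, 25.32 and 31.58 FPKM in DMSO+AB, and the groups overlapped. Its difference was 0.24 (SE 0.126, 95% interval -0.03 to 0.52, adjusted p = 0.301 from limma). P4ha3 was listed at 0 in the 3 DMSO+Sham mice and at 0.08, 0.30 and 0.26 FPKM in the DMSO+AB mice. These values are close to the rounding of the table, 0.01 FPKM. With no filter on low values P4ha3 passed the test (difference 0.27 on the log2 scale, adjusted p = 0.0416 from limma over 17972 genes).

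None of the lysyl hydroxylases passed, and their differences were of the size seen for P4ha2 or smaller still for Plod3. Plod1, which hydroxylates lysines of the helix, was at 47.66, 43.91 and 37.27 FPKM in DMSO+Sham and at 47.11, 47.05 and 61.15 FPKM in DMSO+AB (difference 0.26, 95% interval -0.03 to 0.55, adjusted p = 0.301 from limma). Plod2, which hydroxylates the telopeptide lysines behind the stable crosslinks of scar tissue, was at 8.13, 7.18 and 7.58 FPKM in DMSO+Sham and at 8.87, 12.25 and 7.88 FPKM in DMSO+AB (difference 0.29, 95% interval -0.10 to 0.67, adjusted p = 0.397 from limma). Plod3, which also adds glucose to galactosylhydroxylysine, was at 17.36, 15.91 and 23.42 FPKM in DMSO+Sham and at 18.03, 21.58 and 21.98 FPKM in DMSO+AB (difference 0.13, 95% interval -0.16 to 0.41, adjusted p = 0.628 from limma). The sham and AB mice overlapped for all 3 genes, and the upper ends of the intervals leave room for a rise of up to 0.67 on the log2 scale. With each library left out in turn the differences ranged from 0.14 to 0.34 for Plod1, 0.12 to 0.41 for Plod2 and 0.019 to 0.28 for Plod3, and from 0.14 to 0.38 for P4ha2.

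The calls for Loxl1 and Loxl2 rested on single libraries. Without DMSO+Sham mouse 1 or without DMSO+AB mouse 2 the number of members that passed was 0, and without DMSO+AB mouse 3 it was 1 (Loxl2). Without DMSO+AB mouse 1 it was 3, with Loxl3 at 1.41 on the log2 scale (adjusted p = 0.00165 from limma). With limma weights for each library Loxl3 passed too (1.23, adjusted p = 0.0189 from limma). In a model of only the 6 mice compared, 0 passed, with an adjusted p of 0.142 for Loxl1 and 0.0906 for Loxl2 from limma.

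**Figure D2:**
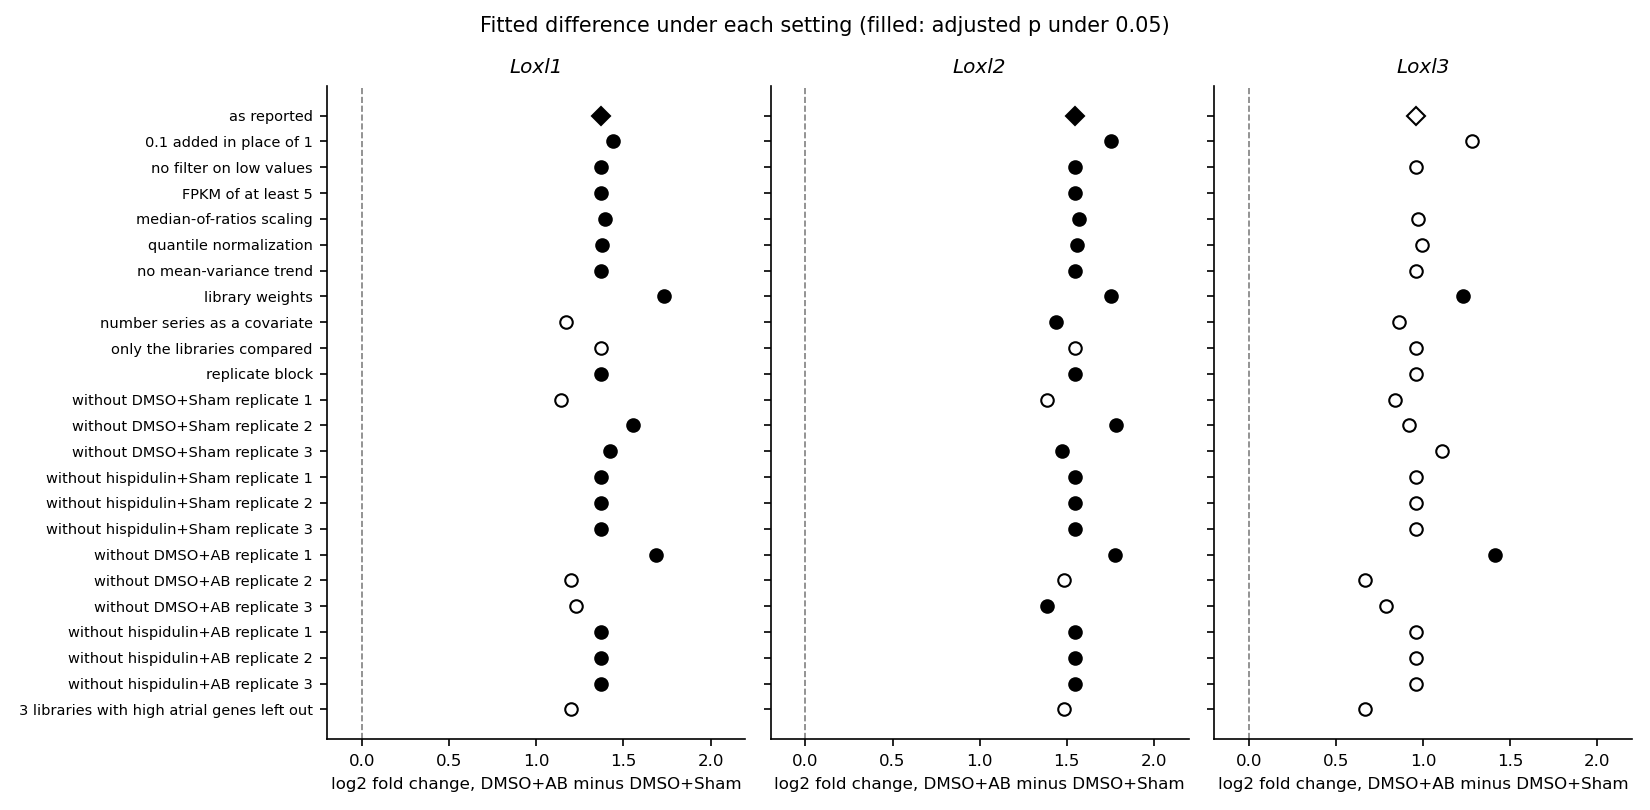
Fitted log2 fold change of DMSO+AB against DMSO+Sham (horizontal axis, FPKM + 1 except where 0.1 was added) for Loxl1, Loxl2 and Loxl3 under each setting tried (vertical axis), with filled symbols for an adjusted p under 0.05. All values lie above 0, between 1.14 and 1.74 for Loxl1, 1.39 and 1.79 for Loxl2 and 0.67 and 1.41 for Loxl3. A Loxl3 symbol is lacking for the filter of at least 5 FPKM, which that gene did not reach.

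Some libraries stood apart. DMSO+AB mouse 2, with the highest Lox level, also had the highest Postn, a marker of activated fibroblasts, at 183.62 FPKM. In the same mouse the summed FPKM of the atrial genes Myl7, Myl4 and Sln was 172, against 3.06 and 4.31 in the other DMSO+AB mice, and hispidulin+Sham mouse 3 and hispidulin+AB mouse 3 were likewise high in atrial genes, at 774 and 91.0. These values go against a label of ventricular muscle alone in those 3 libraries. The ventricular gene Myl2 was at 12904, 13447 and 14324 FPKM in them, within the 11178 to 16920 FPKM of the other mice. The lysyl oxidases summed to 20.6 FPKM in that hispidulin+Sham mouse, the highest of its group by little, and to 39.7 FPKM in that hispidulin+AB mouse, between the others of its group. With these 3 libraries left out, a choice made after seeing the data, 0 members passed, and the differences were 1.20 for Loxl1 and 1.48 for Loxl2 (adjusted p = 0.180 and 0.114 from limma). Cardiomyocyte markers summed to between 29520 and 44890 FPKM in the 12 mice, and the adipocyte markers Adipoq and Plin1 to at most 0.62. In DMSO+AB against DMSO+Sham 5 of the 6 cardiomyocyte markers had lower fitted values, 3 of them with an unadjusted p under 0.05 (20.4% of all genes). Actc1 had a higher one (0.78, unadjusted p = 0.0460 from limma). Ryr2, the calcium release channel, fell by 0.59 on the log2 scale (adjusted p = 0.0364 from limma). DMSO+Sham mouse 3 stood apart too, with Actc1 at 2741 FPKM against 7909 to 11562 in the other mice, the hypoxia-responsive Bnip3 at 689 against 132 to 263 and the macrophage marker Adgre1 at 11.1 against 2.71 to 5.65. It also had the lowest limma library weight, 0.328. Without that mouse Loxl1 and Loxl2 both passed, at 1.42 and 1.47 (adjusted p = 0.0278 and 0.0216 from limma). The part of atrial tissue and of cardiomyocyte RNA in the differences was not tested beyond these fits.

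Fibroblast markers were compared beside the members. In DMSO+AB against DMSO+Sham, 0 of 6 general fibroblast markers passed in limma (5.21% of all genes). At an unadjusted p under 0.05 there were 3 (20.4% of all genes), and the median log2 fold change was 0.30. Their summed FPKM ranged from 831 to 905 in DMSO+Sham and from 838 to 1140 in DMSO+AB. Of 4 markers of activated fibroblasts 3 were tested, and Postn and Cilp rose. The sum of the 4 was 6.35 to 15.7 FPKM in DMSO+Sham and 32.0, 277 and 130 FPKM in DMSO+AB mice 1 to 3, so the mouse with the lowest sum was also the mouse with the lowest Loxl1, Loxl2 and Loxl3. The part of fibroblast number in the rise of Loxl1 and Loxl2 was not tested, and in bulk tissue fewer cells of a type and less RNA per cell cannot be told apart.

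Library names carry numbers that fall into a series beginning with 52 and one beginning with 67, apart from DMSO+Sham mouse 1, which is numbered 1, and what the numbers mark is not stated. Within the 52 series, 1 mouse against 1, DMSO+AB was above DMSO+Sham by 1.30 for Loxl1 and 1.40 for Loxl2 on the log2 scale. Within the 67 series, 2 AB mice against 1 sham mouse, the differences were 1.12 and 1.54. The direction held in both series for these genes, but not for Plod3, at 0.44 and -0.24. With the number series as a covariate Loxl1 no longer passed (1.17, adjusted p = 0.0616 from limma), while Loxl2 did (1.44, adjusted p = 0.0379 from limma).

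The next comparison asked whether hispidulin altered these genes in banded hearts. The lysyl oxidases had lower values with hispidulin, the other members hardly differed, and no difference passed the test. Of the 9 members tested 0 passed at an adjusted p under 0.05 in limma, as did 0% of all genes, and 2 members had an unadjusted p under 0.05, against 3.1% of all genes. All 9 fitted differences (hispidulin+AB minus DMSO+AB) were negative, with a median of -0.13 against 0.0047 over all genes, but 0 of the 9 had each hispidulin+AB value under each DMSO+AB value, as had 3.65% of all genes. This comparison shares the DMSO+AB mice with the one before, so a high value in those mice raises one difference and lowers the other. The 3 activated fibroblast markers tested were also lower, and 0 passed. Cilp was at -1.59 (unadjusted p = 0.0471 from limma), Postn at -0.94 and Fap at -0.15. The sum of the 4 markers was 24.6 to 72.2 FPKM in hispidulin+AB, against 32.0 to 277 FPKM in DMSO+AB. Of the 6 general fibroblast markers 4 were lower and 2 higher. The part of fibroblasts in these differences was not tested.

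Loxl1 was at 15.83, 24.11 and 19.82 FPKM in hispidulin+AB, beside 20.28, 40.89 and 39.49 FPKM in DMSO+AB. The first DMSO+AB mouse lay among the hispidulin+AB mice, and the other 2 lay above them. The fitted difference was -0.68 on the log2 scale (95% interval -1.26 to -0.09, adjusted p = 0.996 from limma). Loxl2 was at 5.70, 9.36 and 10.38 FPKM in hispidulin+AB, so that only the first DMSO+AB mouse, at 9.46, fell inside this range, and the difference was -0.63 (95% interval -1.21 to -0.06, adjusted p = 0.996 from limma).

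Loxl3 was at 1.48, 2.37 and 2.32 FPKM in hispidulin+AB, all of them under the lowest DMSO+AB value, 1.51, or between it and the next, 4.96. Its difference was -0.64 (95% interval -1.32 to 0.03, adjusted p = 0.996 from limma). Without DMSO+AB mouse 1 the Loxl3 value was -1.10 and without DMSO+AB mouse 2 it was -0.35, and the Loxl2 value was -0.40 without hispidulin+AB mouse 1. Lox was at 6.56, 5.94 and 7.17 FPKM in hispidulin+AB, close together and level with the 2 lower DMSO+AB mice. The Lox difference of -0.45 (95% interval -1.49 to 0.59) was 0.03 without DMSO+AB mouse 2 and -0.73 without DMSO+AB mouse 3.

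P4ha1 was at 19.15, 19.15 and 20.97 FPKM in hispidulin+AB, P4ha2 at 26.83, 26.88 and 25.79 FPKM and P4ha3 at 0, 0.08 and 0.04 FPKM. The fitted difference from DMSO+AB was -0.13 for P4ha1 (95% interval -0.43 to 0.17) and -0.04 for P4ha2 (95% interval -0.32 to 0.23). The P4ha1 value was -0.21 without DMSO+AB mouse 1 and -0.069 without DMSO+AB mouse 2. Plod1 was at 46.52, 53.48 and 51.51 FPKM, Plod2 at 9.07, 9.85 and 8.95 FPKM and Plod3 at 20.84, 20.02 and 19.49 FPKM. The 3 lysyl hydroxylase differences were -0.03, -0.03 and -0.02, with intervals that stayed within -0.42 and 0.35, and the signs of these values and of P4ha2 turned under some settings. Among the lysyl oxidases, within the 52 series (1 mouse against 1) the difference was -0.96 for Loxl1 and -0.66 for Loxl2, and within the 67 series (2 against 2) -0.54 and -0.62. Lox differed in sign between the series, at 0.23 and -0.79.

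**Figure D3:**
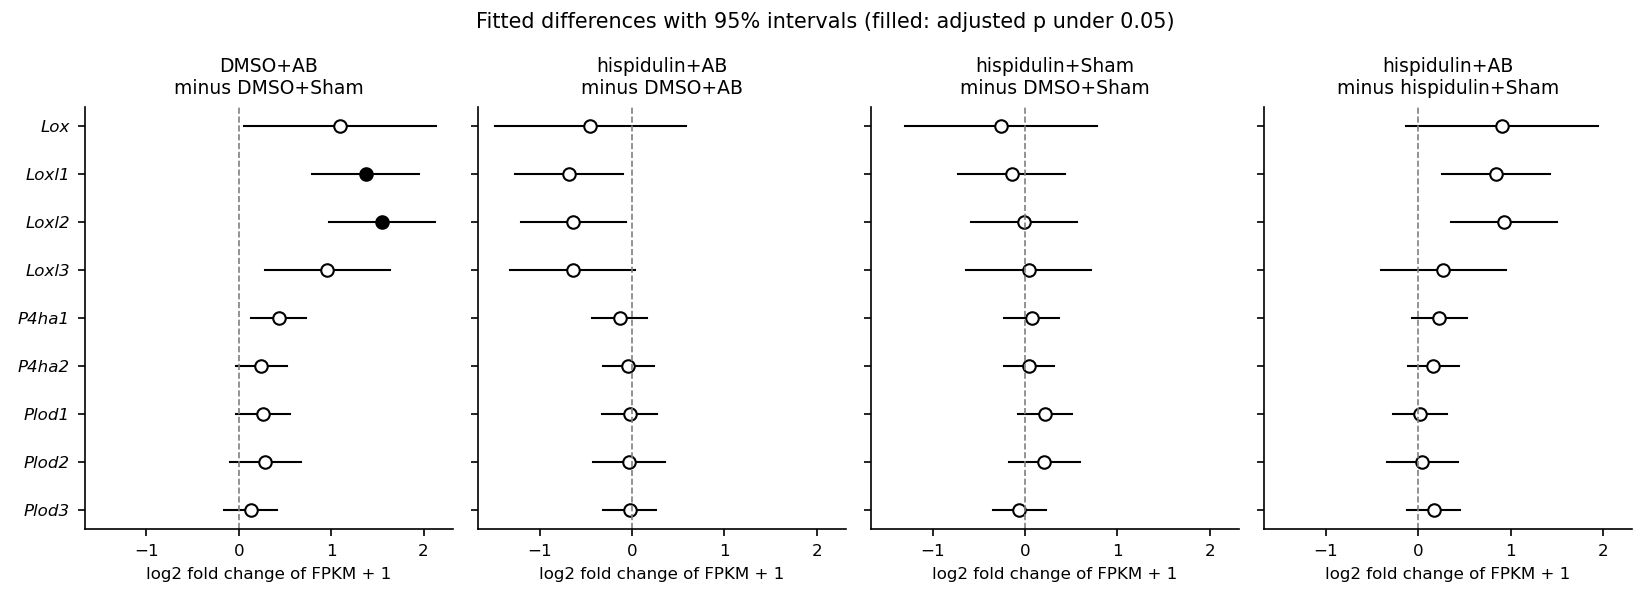
Fitted log2 fold change of FPKM + 1 (horizontal axes) with its 95% interval for the 9 members tested, in 4 comparisons of 3 mice against 3. Filled points have an adjusted p under 0.05, which holds for Loxl1 at 1.37 and Loxl2 at 1.55 in DMSO+AB against DMSO+Sham and for no other point.

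In unbanded hearts no difference with hispidulin passed, and the intervals of the lysyl oxidases were too wide to call their levels equal. The 95% interval was -0.73 to 0.44 for Loxl1, -0.58 to 0.56 for Loxl2 and -0.64 to 0.72 for Loxl3. Of the 9 members 0 passed at an adjusted p under 0.05 in limma, as did 0% of all genes, and 0 had an unadjusted p under 0.05, against 2.46% of all genes. The differences of hispidulin+Sham from DMSO+Sham ran from -0.26 for Lox (95% interval -1.30 to 0.78) to 0.22 for Plod1 (95% interval -0.08 to 0.51), and every gene's groups overlapped among those tested. Loxl1 was between 9.73 and 11.98 FPKM in hispidulin+Sham and Loxl2 at 3.12, 4.13 and 4.44 FPKM, inside the DMSO+Sham ranges. Lox, at 3.45, 1.57 and 4.71 FPKM, had an SD of 1.58, against 2.98 in DMSO+Sham, while Loxl3, at 1.61, 1.45 and 1.46 FPKM, varied little.

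P4ha1 was at 17.06, 13.28 and 20.58 FPKM in hispidulin+Sham, spread more widely than in DMSO+Sham, and P4ha2 at 22.83, 23.97 and 24.02 FPKM. Plod1 was at 56.73, 44.96 and 48.50 FPKM, Plod2 at 6.75, 9.17 and 11.56 FPKM and Plod3 at 18.20, 17.31 and 17.98 FPKM. P4ha3 was listed at 0.04 FPKM in each of the 3 mice, again near the rounding of the table.

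Banding in mice that received hispidulin was the remaining contrast between groups. The lysyl oxidases again gave the largest fitted differences, led by Loxl2, Lox and Loxl1, and none passed. Of the 9 members 0 passed at an adjusted p under 0.05 in limma (0% of all genes), 2 had an unadjusted p under 0.05 (7.26% of all genes), and 5 members had each banded value higher than each sham value (9.14% of all genes). These 5 were Lox, Loxl1, Loxl2, P4ha2 and Plod3. The differences were 0.90 for Lox (95% interval -0.13 to 1.94), 0.84 for Loxl1 (95% interval 0.26 to 1.43, adjusted p = 0.516 from limma), 0.93 for Loxl2 (95% interval 0.36 to 1.50, adjusted p = 0.479 from limma) and 0.27 for Loxl3 (95% interval -0.40 to 0.95). Those of the hydroxylases ran from 0.02 for Plod1 to 0.23 for P4ha1, and the median over the 9 members was 0.23, against -0.02 over all genes. With each library left out Lox ranged from 0.58 to 1.16, Loxl1 from 0.70 to 0.99 and Loxl2 from 0.78 to 1.16. Loxl3 ranged from 0.20 to 0.42 and P4ha1 from 0.071 to 0.37. The activated fibroblast markers Postn (1.68) and Cilp (1.785) had each banded value higher than each sham value, Fap was at 0.18, and 0 passed. The blood markers Hba-a1, Hbb-bs and Alas2 were lower, between -0.91 and -0.745, and 0 passed. The part of cell types in these differences was not tested.

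Whether the AB difference itself depended on hispidulin was tested as an interaction. Of the 9 members 0 passed at an adjusted p under 0.05 in limma (0% of all genes) and 0 had an unadjusted p under 0.05 (2.48% of all genes). The interaction was -0.19 for Lox (95% interval -1.66 to 1.28), -0.53 for Loxl1 (95% interval -1.36 to 0.30), -0.62 for Loxl2 (95% interval -1.43 to 0.19) and -0.68 for Loxl3 (95% interval -1.64 to 0.27). Each interval includes 0. Leaving out 1 library moved these values to between -0.58 (without DMSO+Sham mouse 3) and 0.34 (without DMSO+Sham mouse 2) for Lox, and between -0.85 (without DMSO+AB mouse 1) and -0.30 (without DMSO+Sham mouse 1) for Loxl1. The range was -0.86 (without DMSO+Sham mouse 2) to -0.39 (without hispidulin+AB mouse 1) for Loxl2, and -1.14 (without DMSO+AB mouse 1) to -0.39 (without DMSO+AB mouse 2) for Loxl3. The 3 lysyl hydroxylases and the 2 alpha subunits tested lay between -0.24 and 0.04.

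Summed over a family, the 3 groups of enzymes behaved differently in size. The 4 lysyl oxidases together were at 17.1, 23.9 and 25.4 FPKM in DMSO+Sham and at 38.1, 80.7 and 67.4 FPKM in DMSO+AB. In hispidulin+AB they were at 29.6, 41.8 and 39.7 FPKM, a range that holds the lowest DMSO+AB mouse, and in hispidulin+Sham at 20.2, 16.9 and 20.6 FPKM. Loxl1 made up between 48.2 and 64.6% of this sum in each of the 12 mice, and the mean Loxl1 share was 54.3% in DMSO+Sham, 54.2% in DMSO+AB, 55.2% in hispidulin+Sham and 53.7% in hispidulin+AB. The share of Lox varied more, between 5.53 and 28.5%.

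The alpha subunits summed to 37.2, 43.9 and 35.8 FPKM in DMSO+Sham and to 44.8, 49.5 and 54.1 FPKM in DMSO+AB. The lysyl hydroxylases summed to 69.5 ± 3.25 FPKM (SD, n = 3) in DMSO+Sham and to 74.0, 80.9 and 91.0 FPKM in DMSO+AB. Both sums were higher in each AB mouse than in each sham mouse, but only narrowly. The highest DMSO+Sham lysyl hydroxylase sum was 73.15 FPKM, against 74.01 FPKM for the lowest DMSO+AB sum. For the alpha subunits these values were 43.9 and 44.8 FPKM. Of single genes, 7.18% separated in this direction. The sums were not tested, and P4ha2, Plod1, Plod2 and Plod3 each overlapped between these groups. In the main limma fit 0 of the tested genes in these 2 families passed. P4ha2 made up between 51.2 and 64.3% of the alpha subunit sum, and Plod1 between 54.6 and 69.4% of the lysyl hydroxylase sum.

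**Figure D4:**
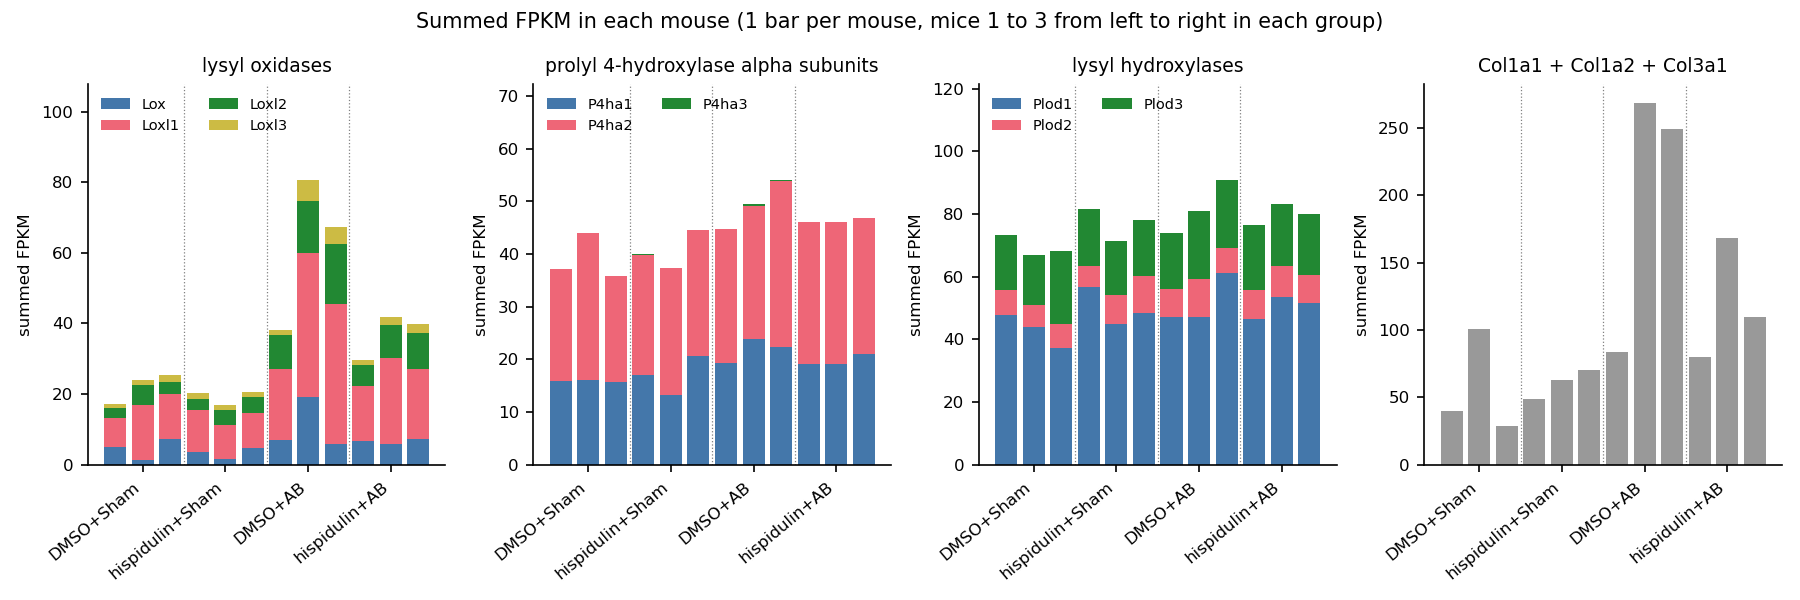
Summed FPKM (vertical axes, from 0) of each enzyme family and of the fibrillar collagen chains Col1a1, Col1a2 and Col3a1, with 1 bar per mouse and colours for the genes of a family. The lysyl oxidase bars reach 38.1 to 80.7 in DMSO+AB against 17.1 to 25.4 in DMSO+Sham, and the collagen bars 84.0 to 269 against 28.3 to 101.

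Set against the fibrillar collagen transcripts, the sums read as follows. Col1a1, Col1a2 and Col3a1 together were at 39.8, 101 and 28.3 FPKM in DMSO+Sham and at 84.0, 269 and 249 FPKM in DMSO+AB. The lysyl oxidase sum was 43.0, 23.7 and 89.6% of the collagen sum in the DMSO+Sham mice and 45.4, 30.0 and 27.0% in the DMSO+AB mice, and these overlap. The lysyl hydroxylase sum was 184, 66.6 and 241% of the collagen sum in DMSO+Sham and 88.1, 30.1 and 36.5% in DMSO+AB, which overlap in 1 mouse of each group. For the alpha subunits the percentages were 93.6, 43.7 and 127% in DMSO+Sham and 53.4, 18.4 and 21.7% in DMSO+AB, overlapping in the same mice. These ratios compare transcripts, not proteins or crosslinks.

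A further 40 genes in 4 lists were read beside the members, of which 3 lists hold genes of collagen maturation and the other holds 14 hypoxia-responsive genes. In DMSO+AB against DMSO+Sham 35 were tested, and 9 rose and 1 fell, against 5.21% of all genes in either direction. At an unadjusted p under 0.05 there were 19 of the 35, against 20.4% of all genes. The 5 tested genes of the list of chaperones and processing enzymes all rose. They were Serpinh1, the collagen chaperone HSP47, by 0.83 on the log2 scale, Bmp1, the C-proteinase that also activates lysyl oxidase, by 0.54, Pcolce and Pcolce2, enhancers of that proteinase, by 1.25 and 1.03, and Adamts2, the N-proteinase, by 1.16. The other 3 genes of that list, Adamts3, Adamts14 and Tll1, were too low to be tested, had lower means in DMSO+AB, and are named after their values were seen. Adamts3 was at 0.90, 0.78 and 1.00 FPKM in DMSO+Sham and at 0.42, 0.58 and 0.42 FPKM in DMSO+AB, and with no filter on low values it passed on the lower side (-0.36, adjusted p = 0.0327 from limma). Of the 6 substrates 4 rose, with Col1a1 at 1.86, Col1a2 at 1.60, Col5a2 at 1.61 and elastin (Eln) at 1.53, while Col3a1, at 2.04, had an adjusted p of 0.0665 from limma. These calls were as fragile as those of the members or more so, with 0 of the 35 passing with the number series as a covariate, without DMSO+Sham mouse 1, without DMSO+AB mouse 2 or in the model of the 6 mice alone, 1 (Col5a2) without DMSO+AB mouse 3 and 6 without hispidulin+Sham mouse 1.

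Among 12 further enzymes and their cofactors 11 were tested, and 0 rose and 1 fell. Of the 11, 9 had higher fitted values, and 6 had an unadjusted p under 0.05, against 20.4% of all genes. P3h2 and P3h3, prolyl 3-hydroxylase genes, were at 0.67 and 0.70 (adjusted p = 0.0637 and 0.0574 from limma). With library weights P3h2, P3h3, Ppib and Tgm2 passed too. The gene that fell was P3h4, a non-enzymatic partner of lysyl hydroxylase, at 21.64, 17.79 and 18.67 FPKM in DMSO+Sham and 13.85, 11.63 and 12.69 FPKM in DMSO+AB. Its difference was -0.57 on the log2 scale (adjusted p = 0.0416 from limma), and it did not pass with no filter on low values, with median-of-ratios scaling, with quantile normalization or in several fits that left out a library. P4hb, the beta subunit that every alpha subunit binds, was at 100.14, 109.62 and 104.44 FPKM and at 99.08, 120.14 and 122.49 FPKM in the same groups (0.11, adjusted p = 0.574 from limma). Loxl4, the remaining lysyl oxidase of the mouse, did not reach the level for testing and was listed between 0.21 and 0.59 FPKM in the 12 mice.

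**Figure D5:**
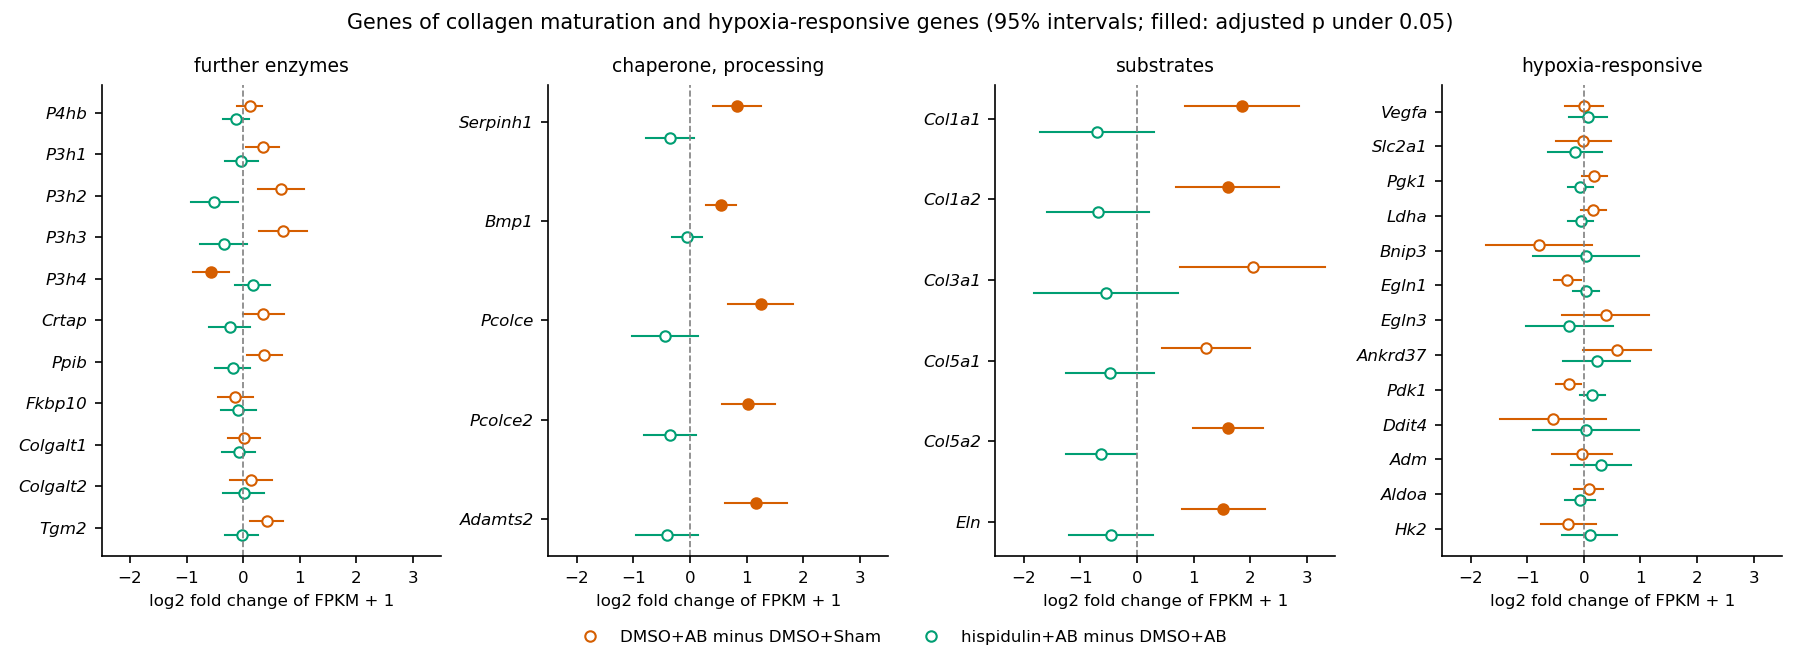
Fitted log2 fold change of FPKM + 1 (horizontal axes) with its 95% interval for 35 further genes that were tested, in 3 lists of collagen maturation and 1 of hypoxia-responsive genes, for DMSO+AB against DMSO+Sham and for hispidulin+AB against DMSO+AB. Filled points, with an adjusted p under 0.05, occur in the first comparison only: 5 of 5 chaperone and processing genes, 4 of 6 substrates, P3h4, and 0 of 13 hypoxia-responsive genes.

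With hispidulin in banded hearts 0 of the 35 passed in limma (0% of all genes), and 25 had lower and 10 higher fitted values. At an unadjusted p under 0.05 there were 2 of the 35, against 3.1% of all genes. All 5 chaperone and processing genes and all 6 substrates were on the lower side, for example Serpinh1 at -0.35 (95% interval -0.77 to 0.07), Col1a1 at -0.70 (95% interval -1.71 to 0.30) and Eln at -0.46 (95% interval -1.19 to 0.28). In hispidulin+Sham against DMSO+Sham 0 passed, with 1 unadjusted against 2.46% of all genes. In hispidulin+AB against hispidulin+Sham 0 passed, with 8 unadjusted against 7.26% of all genes.

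Prolyl and lysyl hydroxylase genes are known targets of the hypoxia-inducible factors, so hypoxia-responsive genes were listed too. Of 14, 13 were tested in DMSO+AB against DMSO+Sham, and 0 rose and 0 fell in limma, against 5.21% of all genes. At an unadjusted p under 0.05 there were 2, against 20.4% of all genes. The median log2 fold change was -0.01. Promoter windows of 5 of the members were examined, P4ha1, P4ha2, P4ha3, Plod1 and Plod3, and none of the lysyl oxidases or of Plod2. In the 250 bases before the start of each, the hypoxia response core, ACGTG or GCGTG on either strand, occurred 3, 3, 0, 1 and 4 times, and 38.6% of the 32851 windows of the same length held at least 1. The AP-1 word TGACTCA, also sought on either strand, was in 0 of the 5 and in 4.46% of all windows. The window printed is that of P4ha1, which had the largest difference after AB among the hydroxylase members tested. It is from RefSeq on GRCm38.p6, chr10:59323046-59323295, plus strand, with the cores in capitals.
P4ha1: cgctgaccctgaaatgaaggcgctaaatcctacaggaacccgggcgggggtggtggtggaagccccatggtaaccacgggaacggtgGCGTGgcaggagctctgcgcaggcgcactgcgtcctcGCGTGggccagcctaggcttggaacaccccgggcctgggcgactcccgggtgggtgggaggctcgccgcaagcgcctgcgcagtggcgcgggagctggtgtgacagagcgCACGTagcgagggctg

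A match of these letters is a description of the window and shows neither binding nor use. The share of 38.6% was not matched for base composition, and G and C made up 55.6 to 70.0% of the windows of the members. Whether the number of cores bears on the differences after AB was not tested, nor was a part of hypoxia in them.

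Genes that followed the leading member of each family most closely over the 12 libraries were found by Pearson correlation of log2(FPKM + 1), as a description without a test, since libraries of 1 group share their treatment. For Loxl1 these were Eif4e2, Anxa5 and Fbn1 (r = 0.972, 0.972 and 0.970), of which Fbn1 encodes fibrillin, a scaffold of elastic fibres. After the group means were removed the 3 values were 0.895, 0.904 and 0.899. For P4ha2 they were Igfbp5, Nkain1 and Mapre2 (r = 0.937, 0.934 and 0.932), and for Plod1 Smarcd3, Kif26a and Chid1 (r = 0.938, 0.923 and 0.866).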

How the data were processed

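Left ventricular RNA of 12 samples was measured, 1 library each, and groups were taken from the labels. The authors deposited FPKM for 18079 genes, rounded to 0.01. The submitters' processing notes name HISAT2 2.0.4, Bowtie2 2.2.5, RSEM 1.2.12 and DESeq2 1.4.5, and the genome build is not given in the sources used here. Symbols were matched for 99.3% of genes through RefSeq, and 0 columns were left unmapped. The labels do not state outright that the 3 samples of a group are separate mice, and p-values measure the spread between them. FPKM were tested as log2(FPKM + 1) in R 4.3.3 with limma 3.58.1 (1 mean per group, 8 error degrees of freedom, eBayes with trend, Benjamini-Hochberg), after a check on simulated data.

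The members and lists were chosen with earlier results of these data known. All members were named, with partner genes that passed in DMSO+AB against DMSO+Sham and Loxl4, P4hb, Serpinh1, Bmp1, Pcolce, Adamts2, Col1a1, Col1a2, Col3a1 and Eln. Residuals of libraries with the same replicate number correlated by -0.09 in DMSO+AB against DMSO+Sham and 0.10 in hispidulin+AB against DMSO+AB on average, and by 0.23 and 0.19 (at least 0.126 for each pair) in the sham comparison and in hispidulin+AB against hispidulin+Sham. The labels give no source for a pairing by these numbers, and correlations of this size between residuals centred within groups cannot establish one. Alternatives were 0.1 added in place of 1, no filter on low values or one at 5 FPKM, scaling by median of ratios or by quantiles, library weights, a fit without the trend, the number series as a covariate, a fit of only the libraries compared, the replicate block, each library left out and, added after seeing the data, 3 libraries with high atrial genes left out.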

Additional observations from a re-analysis of the deposited data

How the results depend on the processing

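In DMSO+AB against DMSO+Sham the fitted values of the 9 members were above 0 under every alternative. The number of members that passed, 2, became 1 (Loxl2) with the number series as a covariate, 0 with only the libraries compared and 0 with the 3 libraries high in atrial genes left out, 3 with no filter (P4ha3 added), and lay between 0 and 3 when each replicate was left out. The number of partner genes, 10, became 9 with quantile normalization and 9 without the trend, 5 with no filter on low values, 17 with library weights, and 0 with the number series, with only the libraries compared and without the libraries high in atrial genes, and lay between 0 and 15 when each replicate was left out. In hispidulin+AB against hispidulin+Sham 1 partner gene (Tgm2) passed with library weights. With the replicate block 2 members and 14 partner genes passed in DMSO+AB against DMSO+Sham, and in the other comparisons the block left the counts of members and partner genes at 0. Models of only the libraries compared have fewer error degrees of freedom, and the cause of the other moves was not tested.

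Some values changed sign under some alternatives, none with a passed test, and among them Lox was the largest, at -0.45 in hispidulin+AB against DMSO+AB. In hispidulin+AB against DMSO+AB quantile normalization gave 0.0096 for Plod1 and 0.0036 for Plod3, library weights 0.014 for P4ha2 and 0.0093 for Plod1, and the fit without the libraries high in atrial genes 0.16 for Plod2 and 0.035 for Plod3. Leaving out each replicate gave -0.73 to 0.032 for Lox, -0.093 to 0.061 for P4ha2, -0.089 to 0.097 for Plod1, -0.15 to 0.14 for Plod2 and -0.11 to 0.026 for Plod3. In hispidulin+Sham against DMSO+Sham library weights gave 0.15 for Loxl1, 0.19 for Loxl2, -0.0062 for P4ha1 and 0.0052 for Plod3, the number series 0.0067 for Lox, -0.097 for Loxl3 and -0.030 for P4ha2, and the fit without the libraries high in atrial genes -0.071 for P4ha1. Leaving out each replicate gave -0.79 to 0.13 for Lox, -0.38 to 0.034 for Loxl1, -0.17 to 0.22 for Loxl2, -0.077 to 0.19 for Loxl3, -0.071 to 0.23 for P4ha1, -0.048 to 0.18 for P4ha2 and -0.17 to 0.096 for Plod3. In hispidulin+AB against hispidulin+Sham the number series gave -0.043 for Plod2, the fit without the libraries high in atrial genes -0.018 for Plod1, and leaving out each replicate -0.056 to 0.11 for Plod1 and -0.14 to 0.21 for Plod2. For the interaction library weights gave -0.025 for Plod3, the fit without the libraries high in atrial genes 0.49 for Lox and 0.12 for Plod2, and leaving out each replicate -0.58 to 0.34 for Lox, -0.22 to 0.018 for P4ha2 and -0.12 to 0.15 for Plod3. No interaction was fitted with only the libraries compared, since it needs all 4 groups.

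Depth is unknown, so a level near the rounding of the table, as for P4ha3, carries no counting error, and 3 mice against 3 cannot give a permutation p under 0.1.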
